A study of Arabidopsis thaliana with 4 samples.

Results

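Glutamate receptor-like (GLR) genes encode plant relatives of the ionotropic glutamate receptors of animal synapses, and 6 of them could be followed here in rosette leaves of Arabidopsis thaliana. The members were all genes whose annotated symbol is GLR and a number, with a probe set paired with 1 gene and a mean signal of 29 or more over the arrays. They were GLR1.4, GLR2.7, GLR2.8, GLR3.3, GLR3.5 and GLR3.6, out of 7322 genes that passed the same filter and pairing. They were thus chosen by their mean signal, which is given as a description. GLR1.4 was higher in plants overexpressing ERD15 than in vector plants under both sprays, by 2.69-fold on average (log2 1.43 ± 0.29 SE). The fit used 4 arrays, and its SE comes from genes of like signal. GLR1.4 passed the genotype test, as did 1.63 percent of all genes. It passed in 5 of the 9 processing settings tried, most of which leave its values unchanged. It did not pass with quantile normalization or with arrays centred on the median. The clade 3 genes GLR3.3, GLR3.5 and GLR3.6 were each lower after abscisic acid (ABA) in vector plants. So were 57.3 percent of all genes, or 42.2 percent with arrays centred on the median. GLR1.4, GLR2.7 and GLR2.8 were each higher with ABA in vector plants, as were most genes with arrays centred on the median but not as reported. Those are comparisons of 1 array with 1 array that rest on the vector mock array. Over both genotypes, 0 of the 6 members passed the ABA test, against 3.11 percent of all genes. Added control RNAs that are not from the plant were also lower with ABA in vector plants, like the clade 3 genes.

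RNA was measured on 4 Affymetrix ATH1 arrays, 1 per group. The groups, all in the Col-0 background and 3 weeks old on soil, were ERD15 overexpressor plants of line 52 sprayed with 100 µM ABA in 0.07% ethanol, the same line sprayed with a mock solution holding 0.07% ethanol, plants with the empty pCP60 vector given the ABA spray, and vector plants given the mock spray. Leaves were taken 90 min after the spray, and the seedlings of all groups had first been grown on kanamycin. Leaves of 3 plants were pooled for each sample, per the labels of all groups but vector mock, whose label does not state it. The overexpressor is 1 line, the promoter that drives ERD15 is not given in the sources used here, and 1 label of both overexpressor samples calls them a knock-out, against their titles. ERD15 encodes a small protein named for its early response to dehydration. No probe set used here is paired with it, so the genotype labels were taken as given.

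GLR proteins form cation channels that let calcium into the cell and are opened by amino acids. They fall into clades 1, 2 and 3, the first digit of the gene's name. GLR3.3 and GLR3.6 are best known for carrying wound signals from leaf to leaf: electrical changes and calcium waves run along the veins, and jasmonate responses follow in the distant leaf. ABA, the hormone of drought, itself acts in part through calcium in guard cells, where GLR channels have been studied.

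The RefSeq table of the TAIR10.1 assembly names 20 GLR genes. Of these, 8 had a probe set of their own in the platform annotation used here, GLR2.2 and GLR2.3 shared 1, and the other 10 (GLR1.1, GLR1.3, GLR2.1, GLR2.4, GLR2.5, GLR2.6, GLR3.1, GLR3.2, GLR3.4 and GLR3.7) were not analysed here. ATGLR1.2 passed the filter too, but its symbol does not start with GLR. The member nearest to the limit of 29 was GLR3.6, with a mean signal of 46.2, and the GLR gene outside it was GLR2.9, with a mean of 2.84. GLR2.9 read 1.48 to 4.66, under the floor of 13.3 on each of the 4 arrays, as did the probe set shared by GLR2.2 and GLR2.3 (0.531 to 0.834). Without detection calls, such readings may be background alone. GLR2.7, GLR2.8 and GLR2.9 are direct neighbours on chromosome 2, and GLR3.5 lies beside GLR3.7 on the same chromosome.

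The arrays were alike in median signal (39.95 to 45.8), while vector mock stood apart, with log2 signals that correlated at 0.878 to 0.902 with those of the other arrays, which correlated at 0.911 to 0.935 among themselves (across genes, which are not independent). Leaf identity rests on the rubisco activase gene RCA and the light-harvesting genes LHCB4.1 and LHCB4.2, 3 of 9 listed mesophyll markers, whose summed signal was 19842 and 12825 on the overexpressor ABA and mock arrays and 20544 and 25400 on the vector ABA and mock arrays. The guard cell gene FMA, 1 of 6 listed, read 47.9 and 38.4 on the overexpressor ABA and mock arrays and 61.7 and 59.2 on the vector ABA and mock arrays. EXPA7, a root hair expansin and the 1 root marker of 6 with a probe set, read 20.1 and 5.43 on the overexpressor ABA and mock arrays and 40.04 and 43.4 on the vector ABA and mock arrays. The 25S ribosomal RNA control read 833 and 262 on the overexpressor ABA and mock arrays and 2109 and 1833 on the vector ABA and mock arrays. Bacterial and phage RNAs (bioB, bioC, bioD and cre), added to each sample to follow hybridization, have 18 probe sets here. Several probe sets read each RNA, so the 18 are not independent readings. Scaled like the genes, 18 of 18 were lower with ABA in vector plants (median log2 -0.57) and 18 of 18 were higher with ABA in the overexpressor (median 0.85). The listed markers of veins and of flowers and seeds were not analysed here.

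**Figure D1:**
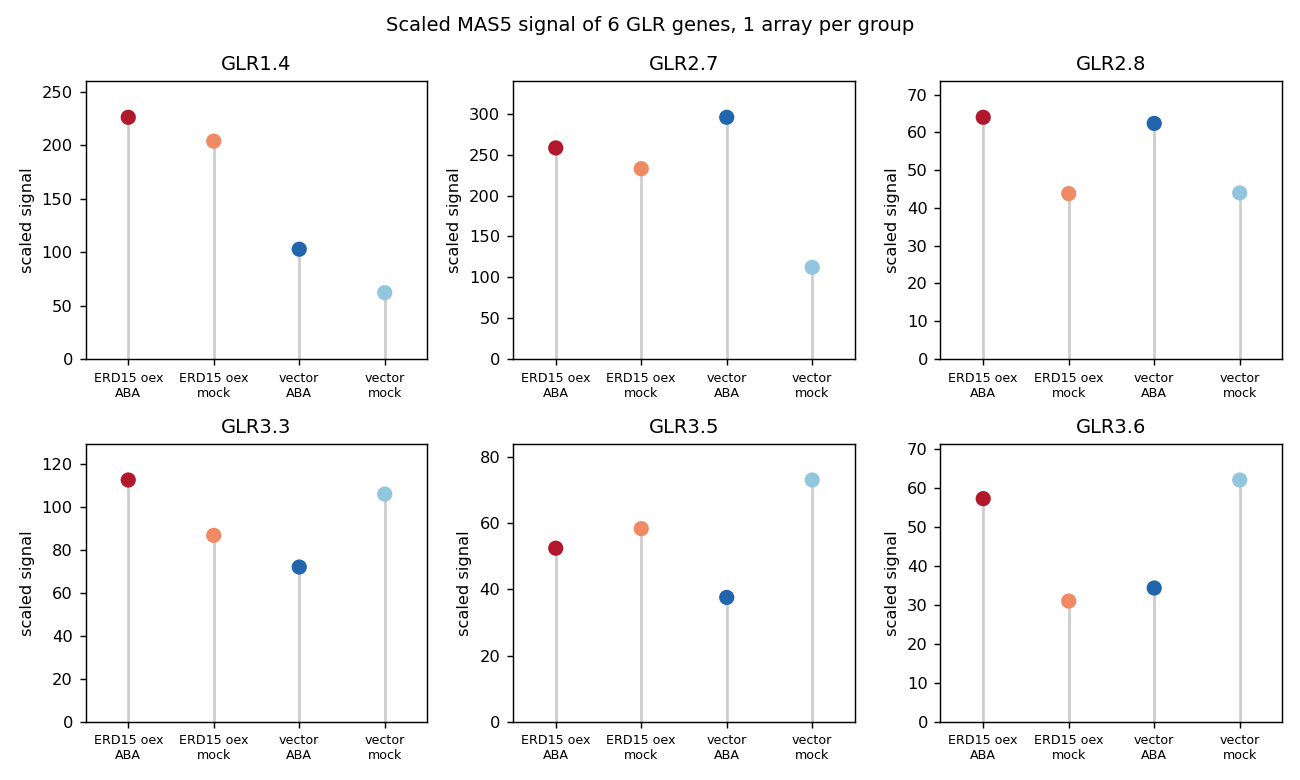
Scaled MAS5 signal (linear, each panel with its own axis from 0) of the 6 GLR genes on the 4 arrays, 1 point per array. GLR1.4 is higher on both overexpressor arrays than on both vector arrays, and GLR2.7 is lowest on vector mock, at 112.

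Over both genotypes, 0 of the 6 GLR genes passed for ABA, against a background of 3.11 percent of all genes, by limma with Benjamini-Hochberg adjustment over 7322 genes at 0.05. At an unadjusted p under 0.05 there was 1, GLR2.7, against 8.99 percent. Over both sprays, 1 of the 6, GLR1.4, passed for genotype, against a background of 1.63 percent. The median effect of the 6 was 0.23 for ABA and 0.13 for genotype on the log2 scale, beside -0.01 and 0.01 over all genes. The model adds a genotype and a spray effect over 4 arrays and keeps 1 residual degree of freedom per gene, so its SE comes from genes of like signal and does not measure variation between plants. A lower signal may come from fewer cells of a type or from less RNA per cell, which bulk leaf RNA cannot tell apart.

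**Figure D2:**
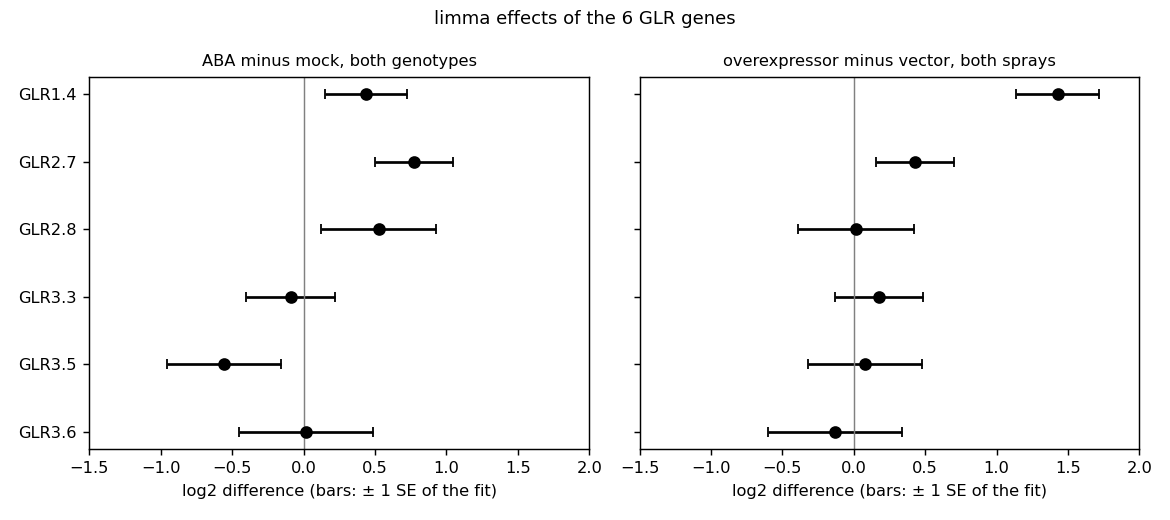
ABA effect over both genotypes (left) and overexpressor minus vector effect over both sprays (right) of the 6 GLR genes, as log2 differences with bars of 1 SE of the limma fit. The genotype effect of GLR1.4, at 1.43, stands apart from those of the other 5, which lie between -0.13 and 0.43.

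The clade 1 member was the one that passed for genotype. GLR1.4 (AT3G07520, chromosome 3) encodes a channel that, expressed in Xenopus oocytes, is opened by several amino acids, methionine above others. Its scaled signal was 226 on overexpressor ABA and 204 on overexpressor mock, against 103 on vector ABA and 62.1 on vector mock. Both overexpressor arrays were thus higher than both vector arrays, with no overlap, as they were for 18.5 percent of all genes. The genotype difference was 2.20-fold under ABA (log2 1.14) and 3.28-fold under mock (log2 1.72), and the limma effect of 1.43 ± 0.29 had an adjusted p of 0.000228. Of the 6 members, only GLR1.4 was higher in the overexpressor under both sprays, as were 26.8 percent of all genes.

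The call of GLR1.4 depends on the processing. Its effect stayed between 1.26 and 1.43 over the 9 settings tried, and its genotypes did not overlap in any of the 9, but it passed in 5 of them. Its values could change only with quantile normalization (effect 1.39), arrays centred on the median (1.41) and log2(signal + 16) (1.26). The other alternatives could change only its test. The limma adjusted p was 0.0875 with quantile normalization, 0.319 with arrays centred on the median, 0.743 without a trend in eBayes and 0.900 with no filter on dim probe sets, and it reached 0.00013 at its lowest. Without vector mock, where GLR1.4 was lowest, the difference was the 1.14 of the ABA arrays, with no test (a setting chosen after the data were seen). EXPA7, FMA, the mesophyll sum and the 25S ribosomal RNA control were each lower on both overexpressor arrays than on both vector arrays, and their part in the GLR1.4 difference was not tested.

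With ABA, GLR1.4 was 1.11-fold higher in the overexpressor (log2 0.15) and 1.65-fold higher in vector plants (log2 0.73). The limma ABA effect of 0.44 ± 0.29 did not pass (adjusted p = 0.885). The overexpressor mock array, at 204, was above the vector ABA array, at 103, so the sprays overlapped once genotypes were pooled.

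GLR1.4 had the widest range of the 6 members, 1.86 log2 units over the 4 arrays. Among 7156 other genes above the floor on every array, those with the most similar profile were AT1G24560, AT3G02060, AT3G51660, AT3G48080 and CYP71B23, a cytochrome P450 gene. Likeness was the root mean square distance of log2 signals centred on each gene's mean over 4 arrays, which ran from 0.12 for AT1G24560 to 0.18 for CYP71B23. All 5 were lowest on vector mock, and their genotype effects ran from 1.12 for AT3G48080 to 1.42 for AT3G02060. The choice by likeness brings both traits with it.

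**Figure D3:**
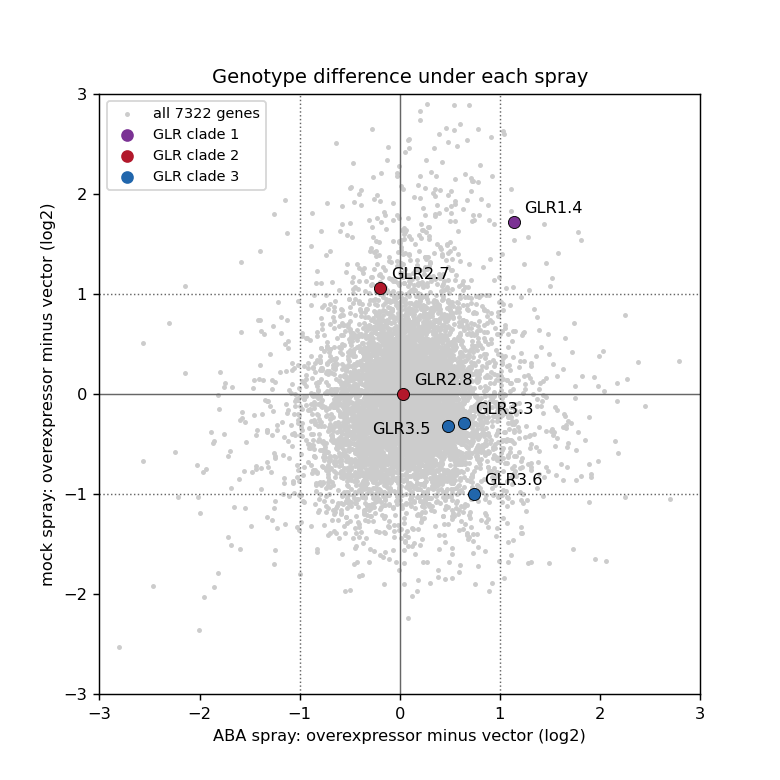
Overexpressor minus vector log2 difference under ABA (horizontal) and under mock (vertical), 1 array against 1 array, for the 6 GLR genes (coloured by clade) over all 7322 genes (grey, 13 outside the axes); dotted lines mark 2-fold. GLR1.4 is past 2-fold under both sprays, and GLR3.6 is higher in the overexpressor under ABA (log2 0.74) and lower under mock.

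The clade 2 members GLR2.7 and GLR2.8 are neighbours, and their group has been tied to the calcium influx that follows the perception of microbial molecules. GLR2.7 (AT2G29120) had a scaled signal of 258 on overexpressor ABA and 233 on overexpressor mock, against 296 on vector ABA and 112 on vector mock. Vector mock was low and the other arrays lay close together, with both ABA arrays above both mock arrays. ABA went with a 1.11-fold higher signal in the overexpressor (log2 0.15) and a 2.64-fold higher one in vector plants (log2 1.40). The limma ABA effect of 0.77 ± 0.27 did not pass over all genes (adjusted p = 0.118, unadjusted p = 0.00473), and over the 9 settings its adjusted p lay between 0.0789 and 0.945. The separation of the sprays was lost with arrays centred on the median, where the ABA difference in the overexpressor was -0.04.

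Between the genotypes, GLR2.7 had a log2 difference of -0.20 under ABA and was 2.08-fold higher in the overexpressor under mock (log2 1.05). Its limma genotype effect of 0.43 ± 0.27 did not pass (adjusted p = 0.774). Like GLR1.4, it had its lowest signal on vector mock, as did 25 percent of all genes.

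GLR2.8 (AT2G29110) had a scaled signal of 64.0 on overexpressor ABA and 43.8 on overexpressor mock, against 62.4 on vector ABA and 44.0 on vector mock. The ABA arrays were above the mock arrays in both genotypes, and the genotypes were nearly equal under each spray. Its ABA difference was 1.46-fold in the overexpressor (log2 0.55) and 1.42-fold in vector plants (log2 0.50). The limma ABA effect was 0.53 ± 0.40 (adjusted p = 0.994) and the genotype effect 0.02 ± 0.40 (adjusted p = 0.999). Of the members, GLR1.4, GLR2.7 and GLR2.8 were higher with ABA in both genotypes, 3 of 6, as were 23.5 percent of all genes. With arrays centred on the median, GLR1.4 and GLR2.7 were each at -0.04 in the overexpressor, and GLR2.8 alone was higher in both.

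In clade 3, ABA in vector plants went with lower signals in 3 of 3 members, as in 18 of 18 probe sets of the added control RNAs and in 57.3 percent of all genes (42.2 percent with arrays centred on the median). GLR3.3 (AT1G42540, chromosome 1) is a channel required for wound signalling between leaves and has been placed in the phloem. Its scaled signal was 112 on overexpressor ABA and 86.7 on overexpressor mock, against 71.9 on vector ABA and 106 on vector mock. The highest and lowest arrays were both ABA arrays, so the sprays overlapped, and vector mock was above overexpressor mock, so the genotypes did too. Its log2 difference with ABA was 0.38 in the overexpressor, against -0.56 for vector plants, and the limma effects were -0.09 ± 0.31 for ABA and 0.18 ± 0.31 for genotype (adjusted p = 0.999 and 0.984).

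GLR3.6 (AT3G51480, chromosome 3), the partner of GLR3.3 in wound signalling, has been placed in cells beside the xylem. Its scaled signal was 57.3 on overexpressor ABA and 31.0 on overexpressor mock, against 34.3 on vector ABA and 62.1 on vector mock. Overexpressor ABA and vector mock were high and the other arrays low, a crossed order that GLR3.3 shared and that 21.7 percent of all genes showed (10.8 percent with arrays centred on the median). The added control RNAs, which are not plant RNA, showed it in 16 of 18 probe sets. ABA went with a 1.85-fold higher signal in the overexpressor (log2 0.89) and with 0.553 of the mock signal in vector plants (log2 -0.85). Under ABA the overexpressor was 1.67-fold higher than vector plants (log2 0.74), and under mock it had 0.499 of their signal. These opposite differences cancel in the limma effects, which were 0.02 ± 0.47 for ABA and -0.13 ± 0.47 for genotype (adjusted p = 0.999 and 0.991).

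GLR3.5 (AT2G32390, chromosome 2) has been linked to calcium signals in ABA responses of seeds, and to calcium signals of guard cells. Its scaled signal was 52.4 on overexpressor ABA and 58.3 on overexpressor mock, against 37.6 on vector ABA and 73.0 on vector mock. Both ABA arrays were below both mock arrays, the one member with that order. The ABA difference was -0.15 in the overexpressor and -0.96 in vector plants, where ABA left 0.514 of the mock signal. The limma ABA effect of -0.56 ± 0.40 did not pass (adjusted p = 0.945), nor did the genotype effect of 0.08 ± 0.40 (adjusted p = 0.996).

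The sprays did not overlap for 3 of the 6 members, GLR2.7, GLR2.8 and GLR3.5, against a background of 31.9 percent, and the genotypes did not overlap for 1, against 35.9 percent. At 2-fold between 1 array and 1 array, ABA changed 0 of the 6 in the overexpressor (8.56 percent of all genes) and 1 in vector plants, GLR2.7 (10.2 percent). The genotypes differed by 2-fold for 1 member under ABA, GLR1.4 (6.06 percent), and for 3 under mock, GLR1.4, GLR2.7 and GLR3.6 (10.3 percent). With 6 members, these counts are too small to set them apart from the background. The values of GLR2.7 and GLR3.6 under mock lie at the 2-fold limit: with quantile normalization GLR1.4 alone was past it. Under mock, the added control RNAs were lower in the overexpressor in 18 of 18 probe sets (median -1.03). GLR3.6, GLR3.5 (log2 -0.32) and GLR3.3 (-0.29) were lower too, GLR2.8 was nearly equal (-0.006), and GLR1.4 (1.72) and GLR2.7 (1.05) were higher.

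**Figure D4:**
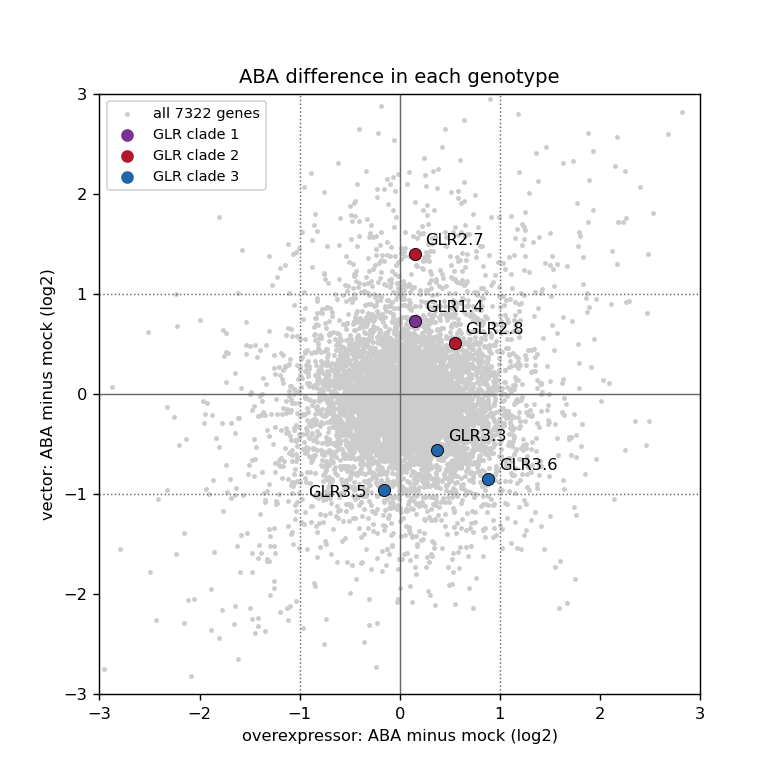
ABA minus mock log2 difference in the overexpressor (horizontal) and in vector plants (vertical), 1 array against 1 array, for the 6 GLR genes (coloured by clade) over all 7322 genes (grey, 14 outside the axes); dotted lines mark 2-fold. On the vertical axis the clade 3 genes lie between -0.96 and -0.56 and the others between 0.50 and 1.40.

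The ABA difference in the overexpressor minus that in vector plants has no replicate check and no test. It was 1.74 for GLR3.6, 0.93 for GLR3.3 and 0.81 for GLR3.5, and 0.04 for GLR2.8, -0.58 for GLR1.4 and -1.25 for GLR2.7. Past 2-fold were GLR3.6 and GLR2.7, 2 of 6, against 18.6 percent of all genes. The median of all genes was itself 0.14 and became -0.23 with arrays centred on the median, so the values were also taken relative to that median. So taken, GLR3.6 was at 1.60 (1.16 to 1.71 over the settings that kept it), GLR3.3 at 0.79 (0.68 to 0.90) and GLR3.5 at 0.67 (0.50 to 0.77). GLR1.4 was at -0.72 (-0.72 to -0.58) and GLR2.7 at -1.39 (-1.39 to -1.19), and the sign of GLR2.8 turned between settings (-0.28 to 0.01). The added control RNAs were at 0.73 to 1.98 before that subtraction, with a median of 1.41, above 0 in 18 of 18 probe sets and past 2-fold in 15. The values of GLR3.3, GLR3.5 and GLR3.6 lie within that range, and the part of the hybridization in them was not tested. In the overexpressor alone, the added control RNAs were higher with ABA in 18 of 18 probe sets, as were GLR3.3 (log2 0.38) and GLR3.6 (0.89). GLR3.5 was lower there (-0.15). All of the GLR values use the vector mock array, which is the highest for GLR3.5 and GLR3.6 and the lowest for GLR1.4 and GLR2.7. Its part in them was not tested.

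**Figure D5:**
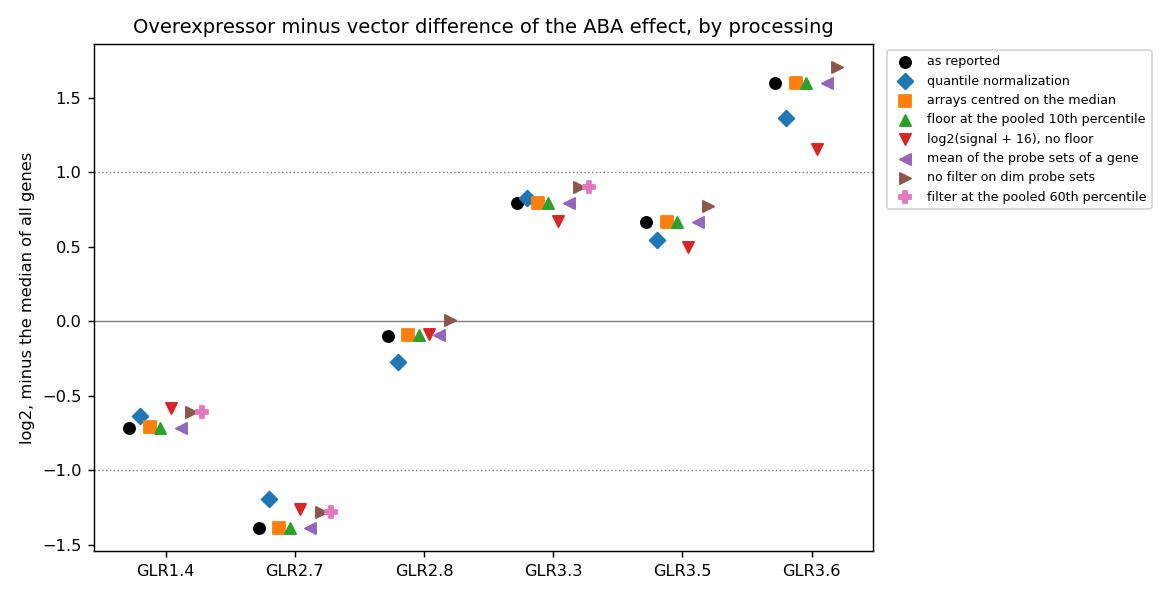
ABA difference in the overexpressor minus that in vector plants (log2, after subtraction of the median of all genes) for the 6 GLR genes under 8 processing settings, 1 symbol per setting; dotted lines mark 2-fold. Dim members are missing from the strictest filter. The 3 clade 3 genes lie above 0 and GLR1.4 and GLR2.7 below it in each setting that kept them.

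ATGLR1.2 (AT5G48400), a clade 1 gene left out by the spelling of its symbol, had a scaled signal of 48.4 on overexpressor ABA and 24.3 on overexpressor mock, against 34.5 on vector ABA and 29.2 on vector mock. GLR1.2 is known from pollen tubes, where it contributes to calcium entry. With ABA its log2 difference was 0.99 in the overexpressor, against 0.24 for vector plants, and neither the ABA effect (0.61 ± 0.62, limma adjusted p = 0.999) nor the genotype effect (0.11 ± 0.62, adjusted p = 0.996) passed.

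Other calcium, glutamate, amino acid transport, jasmonate and guard cell channel genes were sought by gene symbol in 15 lists. Genes that the annotation names only by locus, as it does many, could be missed, so an empty list does not mean unmeasured genes. Matches were found for 1 list, the calmodulins and calmodulin-like proteins, calcium sensors that act downstream of such channels. They were CML30, CML41, CML42 and CML43 of 21 named in RefSeq, and these 4 do not stand for the family. For ABA 0 of the 4 passed by limma (3.11 percent of all genes), and an unadjusted p under 0.05 was reached by 2 (8.99 percent), CML30 with -1.30 ± 0.43 and CML42 with -0.82 ± 0.28 (adjusted p = 0.0764 and 0.106). For genotype an unadjusted limma p under 0.05 was reached by 2, CML41 and CML42 (8.75 percent of all genes). After adjustment 1 passed by limma (1.63 percent of all genes), CML41, with 1.37 ± 0.30 (2.58-fold, adjusted p = 0.00103). CML41 is a calmodulin-like protein known from plasmodesmata in defence. The medians of the 4 were -0.24 for ABA and 0.03 for genotype. CML41 was at log2 signals of 7.24 on overexpressor ABA and 7.55 on overexpressor mock, against 6.53 on vector ABA and 5.53 on vector mock. Like GLR1.4 it was lowest on vector mock. It did not pass with quantile normalization, with arrays centred on the median, with no filter on dim probe sets or without a trend.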

How the data were processed

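The authors deposited intensities (linear MAS5 signals, per the submitters' processing notes; version not given in the sources used here), with 2%-trimmed means of 99.1 to 99.3. Here all arrays were brought to a trimmed mean of 100, computed without controls. Signals below 13.3, the 25th percentile of the pooled values, were set to 13.3 before log2 was taken. Of 22810 probe sets (64 controls), 13513 were paired with 1 gene, 503 with several and 8730 with none, and 13436 of the 13513 matched the RefSeq table. A mean signal of 29.0, the pooled 40th percentile, was required. The brightest probe set stood for a gene, which left 7322 genes, and each member had 1 probe set.

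limma 3.58.1 in R 4.3.3 fitted genotype and spray over the 4 arrays, with a trend in eBayes (prior of 2925 degrees of freedom at the median) and Benjamini-Hochberg adjustment at 0.05. The fit was also run on simulated data with additive effects and noise set by its own SE, which cannot test those assumptions. Differences between 2 arrays have no test. 8 alternatives were tried. The members and lists were chosen with earlier results of these data known. Named genes are all GLR genes, listed genes past the threshold or, where none was, the largest, and the 5 profiles nearest to the widest-ranging member. The number of arrays, 1 per group, limits the precision.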

Additional observations from a re-analysis of the deposited data

How the results depend on the processing

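With 1 array per group, p-values by limma borrow their spread from other genes and do not measure variation between plants. No paired analysis was possible because each group has 1 array and all carry the same replicate number. Under 8 other settings, the count of GLR genes past the limma threshold for genotype, 1 as reported, was 0 with quantile normalization, with arrays centred on the median, with no filter and without a trend; in each of these 4 settings 1 member, GLR1.4, had an unadjusted p under 0.05. The count for ABA was 0 in every setting. Genes past the threshold for genotype over the whole table numbered 119 as reported, 5 with quantile normalization, 4 with arrays centred on the median, 1 without a trend and 0 with no filter (562 with an unadjusted p under 0.05); for ABA they numbered 228, 115, 63, 9 and 0 (641 unadjusted). Members 2-fold different between genotypes under mock were 3 as reported (10.3 percent of all genes) and 1 with quantile normalization (9.17 percent). They were 1 with log2(signal + 16) (5.35 percent) and 2 with arrays centred on the median (10 percent). Members 2-fold different under ABA, 1 as reported (6.06 percent of all genes), were 0 with arrays centred on the median (5.72 percent). The listed gene past the threshold for genotype, 1 as reported, was 0 with quantile normalization, with arrays centred on the median, with no filter and without a trend. The cause of these changes was not tested. No GLR value past 2-fold and no called effect changed sign. The split of all genes past 2-fold turned with the scaling, given here with quantile normalization, then with arrays centred on the median, then as reported. Under ABA, 165, 145 and 288 genes were higher and 220, 273 and 156 lower in the overexpressor, and under mock 410, 528 and 359 were higher and 261, 204 and 397 lower. With ABA, 219, 208 and 367 were higher and 316, 419 and 260 lower in the overexpressor, and 407, 480 and 355 were higher and 301, 243 and 390 lower in vector plants. The ABA effect in the overexpressor minus that in vector plants was past 2-fold upwards for 536, 398 and 869 genes and downwards for 622, 1004 and 495.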
